A study of Rattus norvegicus with 12 samples.

Results

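The genes described here are enzymes that build glycans, namely the N-linked and O-linked chains of glycoproteins, the glycosaminoglycan chains of proteoglycans and the glycolipid anchor of membrane proteins. They were chosen by symbol, from the start of the names of families such as the galactosyltransferases, sialyltransferases, N-acetylglucosaminyltransferases, Alg and Pig genes and the enzymes of nucleotide sugar supply. A total of at least 60 reads over the 12 libraries was also required. Of 32754 genes counted, 1998 carried a name, 27 of these matched by symbol and 22 reached that total. B3galt4 (55 reads), Man1a1 (32), Piga (29), Chst12 (25) and Pigl (6) fell short of it, and Pgm2 (72) and Alg13 (79) were the nearest above it. Pgm2 and Alg13 did not pass the filter on low counts, so 20 of the 22 genes were among the 7378 tested. Pom121 matched the letters of the rule, but its product is a nucleoporin and not an enzyme of glycan synthesis.

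RCS cells are rat chondrosarcoma chondrocytes, and their transcripts were measured by QuantSeq, which reads each polyadenylated RNA near its 3′ end. WT RCS and FGFR3/4KO RCS, a clone edited by CRISPR/Cas9 to lack FGFR3 and FGFR4, were each cultured overnight with vehicle or with fibroblast growth factor 18 (FGF18). Each of the 4 groups held 3 libraries made from 100 ng of total RNA and read as 75 bp, and the serum was 5% in all of them. The labels give FGF18 at 50 µg/ml. The published text gives the same figure in ng/ml, so the dose is not settled here. The knockout is a single clone, so the receptors and the clone cannot be told apart. Fgfr3 and Fgfr4 were not analysed here by name, so the knockout itself was not checked in these libraries. Reads on genes ranged from 669585 to 947730 in WT vehicle, from 846957 to 1196647 in WT FGF18, from 373964 to 925006 in FGFR3/4KO vehicle and from 840149 to 1140741 in FGFR3/4KO FGF18. The fewest were in FGFR3/4KO vehicle replicate 2, where 3 reads were worth 8.02 CPM (counts relative to library size) by raw totals. In WT FGF18 replicate 1 they were worth 2.51 CPM by raw totals. All levels below are CPM after TMM scaling, unless raw totals are named.

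Glycan synthesis begins in the cytosol, where sugars are activated as nucleotide sugars, and proceeds in the endoplasmic reticulum and Golgi. There, transferases assemble the lipid-linked precursor of N-glycans, trim and branch it, and extend O-linked and glycosaminoglycan chains. Chondrocytes depend on these steps to a high degree, because the cartilage matrix is rich in chondroitin sulphate and keratan sulphate carried on proteoglycan core proteins.

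The label of the cells was compared with marker genes first. The 7 chondrocyte markers (Sox9, Col11a2, Chad, Mia, Epyc, S100b, Fmod) summed to 6000, 5630 and 5770 CPM in WT vehicle and 5860, 5760 and 5470 CPM in WT FGF18. In FGFR3/4KO they summed to 6090, 6270 and 6150 CPM with vehicle and 6990, 6100 and 6070 CPM with FGF18. Sox9 alone stood at 1260 to 2060 CPM in every library, whereas Chad held 1 to 22 reads per library and Epyc 0 to 9, with Epyc at 0 in FGFR3/4KO vehicle replicate 1. With FGF18 in WT, Mia rose (log2 fold change 0.37, edgeR adjusted p = 0.0158) and S100b (-0.52, adjusted p = 0.0237) and Fmod (-0.57, adjusted p = 0.00206) fell. Between genotypes with vehicle, Fmod (1.01) and Col11a2 (0.40) were higher in FGFR3/4KO and Chad (-2.23) and Mia (-0.35) lower. With FGF18, Fmod (1.79), Sox9 (0.54) and Col11a2 (0.44) were higher and Chad (-1.42) and Mia (-0.72) lower (edgeR adjusted p under 0.05 for each). The part of such shifts in the changes below was not tested. The 4 genes for fibroblast or bone (Col1a1, Thy1, Mepe, Phospho1) summed to between 15.9 and 32.8 CPM, with Mepe at 0 in all FGFR3/4KO vehicle libraries. Within this sum Col1a1 had a mean of 1.36 CPM in WT vehicle, 11.9 in WT FGF18, 9.48 in FGFR3/4KO vehicle and 5.43 in FGFR3/4KO FGF18, and Phospho1 0.453, 0.319, 2.7 and 8.24 CPM. Thy1, the 1 of the 4 that edgeR tested, was at 16.6, 11, 14.6 and 13.4 CPM and passed in no comparison. DESeq2 called 1 of the 4 up with FGF18 in WT and 1 higher in FGFR3/4KO with FGF18, and their part in the changes below was not tested.

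Liver genes (Alb, Apoa2, Apoh, Fabp1, Serpinc1) were low, and their sums varied between groups, with overlap between the WT groups. Their sums were 10.1, 16.3 and 2 CPM in WT vehicle and 9.84, 37.3 and 43.1 CPM in WT FGF18. In FGFR3/4KO they were 27.6, 28.3 and 36.2 CPM with vehicle and 0, 7.09 and 8.29 CPM with FGF18, all 5 genes being at 0 in replicate 1 of the last group. Alb had the most reads and was the 1 of the 5 genes tested, with at most 27 reads in a library. Its level was higher in FGFR3/4KO than in WT with vehicle (log2 difference 2.01) and lower with FGF18 (-2.34; edgeR adjusted p under 0.05 for each). The part of liver transcripts in the changes below was not tested.

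FGF18 against vehicle in WT RCS asks how the cells respond to the ligand, and the same contrast in FGFR3/4KO RCS whether a response is seen without both receptors. In WT RCS, FGF18 raised the transcripts of Galnt10, Mgat4b and Xylt2 and lowered those of Mgat5, Gfpt2 and Ugdh. These were 3 of the 20 tested genes (15%) in each direction at an adjusted p under 0.05 (edgeR quasi-likelihood test, Benjamini-Hochberg over 7378 genes), against 12.9% of all genes upward and 12.8% downward. Mgat5 held 50 of its 89 reads in WT vehicle and reached the required total of reads through that group. The choice of genes thus favours its fall, and the downward share counts it. The shares were near those of all genes, and the median log2 fold change was -0.19 for the 20 genes and 0.02 for all. DESeq2 called 1 up and 3 down.

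In FGFR3/4KO RCS, edgeR called 0 of the 20 genes in either direction, and 0% of all genes were called. An unadjusted p under 0.05 was reached by 0 of the 20 and by 478 of the 7378, and DESeq2 also called 0. The median log2 fold change was 0.05 for the 20 genes and 0.01 for all. The difference between genotypes was tested as the interaction, the FGF18 effect in FGFR3/4KO minus that in WT. It passed upward for Gfpt2 and Ugdh, 2 of 20 (10%) against 5.91% of all genes. None passed downward against 4.96% of all genes, although 4 of the 20 had a negative difference at an unadjusted p under 0.05. DESeq2 gave 18 of the 20 an adjusted p and called 1 up and 0 down, against 338 up and 247 down among 6077 genes. The median difference was 0.40 for the 20 genes and -0.01 for all.

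**Figure D1:**
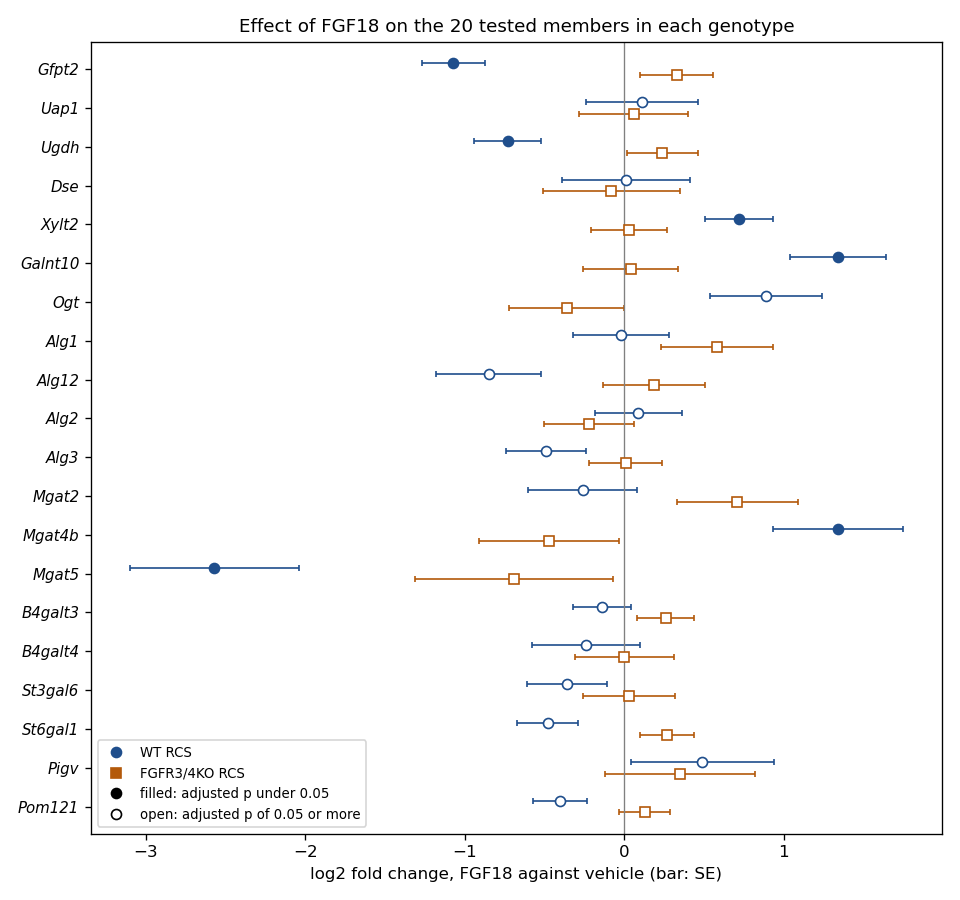
Log2 fold change (horizontal axis) of the 20 tested genes with FGF18 against vehicle, with circles for WT RCS, squares for FGFR3/4KO RCS, bars for the standard error (SE) and filled symbols for an adjusted p under 0.05. The WT values run from -2.57 for Mgat5 to 1.34 for Galnt10 and Mgat4b, and the FGFR3/4KO values from -0.69 for Mgat5 to 0.71 for Mgat2, none of them filled.

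Genotypes were also compared at the same treatment. With vehicle, St6gal1 was higher in FGFR3/4KO and Gfpt2 lower, each 1 of 20 (5%), against 8% of all genes higher and 6.07% lower. With FGF18, 6 of the 20 (30%) were higher in FGFR3/4KO, namely St6gal1, Alg3, Alg12, Ugdh, B4galt3 and the nucleoporin Pom121. Pom121 is not an enzyme of glycan synthesis but counts in the 30%. Xylt2 and Mgat4b (2 of 20, 10%) were lower. All genes gave 16.9% higher and 17% lower, so by edgeR the upward share stood above that of all genes and the downward share below it. DESeq2 called 4 of the 20 higher and 1 lower with FGF18, against 994 higher and 873 lower among 9740 genes. With vehicle it called 0 higher and 1 lower, against 480 higher and 281 lower among 8049 genes. The median log2 difference was 0.14 with vehicle (-0.01 over all genes) and 0.29 with FGF18 (-0.03). No test of the 20 genes as a set was made. These contrasts share libraries with the FGF18 contrasts and are not separate evidence. Reads on genes made up 12.5 to 14.5% of all reads in WT libraries and 17 to 18.8% in FGFR3/4KO libraries, and the part of this difference in the genotype contrasts was not tested.

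Gfpt2 and Ugdh, 2 of the 3 tested genes of nucleotide sugar supply, are the genes whose FGF18 effect passed as different between genotypes, where 5.91% of all genes passed upward and 4.96% downward. DESeq2 called Gfpt2 alone, and roles were not compared by a test. Gfpt2 (ENSRNOG00000002810.6) encodes an isoform of the first and rate-limiting enzyme of the hexosamine pathway, which leads to UDP-N-acetylglucosamine. Its level was 78.3, 120 and 89.9 CPM in WT vehicle and 46.7, 47.8 and 41.9 CPM in WT FGF18. In FGFR3/4KO it was 49, 53.8 and 49.3 CPM with vehicle and 62, 47.9 and 80.1 CPM with FGF18. All WT FGF18 and all FGFR3/4KO vehicle libraries lay below all WT vehicle libraries, whereas the FGFR3/4KO groups overlapped. The fall with FGF18 in WT was -1.07 ± 0.20 (log2 fold change ± SE, n = 3 per group; edgeR adjusted p = 0.000276), while FGFR3/4KO gave 0.33 ± 0.23 (adjusted p = 0.814). The difference between these effects was 1.40 ± 0.30 (adjusted p = 0.0025), and with vehicle the level was lower in FGFR3/4KO than in WT (log2 difference -0.93 ± 0.22, adjusted p = 0.00421). The FGFR3/4KO value for Gfpt2 was 0.52 without FGF18 replicate 2 and 0.13 without FGF18 replicate 3 of that genotype. The 3 calls stood under all alternatives, including each of the 12 libraries left out in turn.

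Ugdh (ENSRNOG00000002643.3) encodes UDP-glucose dehydrogenase, which makes the UDP-glucuronic acid used for glycosaminoglycan chains. It stood at 58, 95.2 and 67 CPM in WT vehicle and at 37.7, 51.7 and 43.1 CPM in WT FGF18. The FGFR3/4KO libraries were at 49, 51 and 63.6 CPM with vehicle and at 60.6, 69.1 and 66.3 CPM with FGF18. With FGF18 every WT library lay below every WT vehicle library and below every FGFR3/4KO FGF18 library, and the FGFR3/4KO groups overlapped. FGF18 lowered Ugdh in WT, with a log2 fold change of -0.73 ± 0.21 (edgeR adjusted p = 0.0103), against 0.24 ± 0.22 in FGFR3/4KO (adjusted p = 0.853). The interaction was 0.97 ± 0.30 (adjusted p = 0.035), and with FGF18 the level was higher in FGFR3/4KO by 0.58 ± 0.21 (adjusted p = 0.0324). Without WT vehicle replicate 2, the highest library, the WT value was -0.52 (adjusted p = 0.112) and the interaction 0.76 (0.138), and without WT FGF18 replicate 1 they were -0.62 (0.0556) and 0.86 (0.0867). The FGFR3/4KO value for Ugdh was 0.15 without vehicle replicate 1 and 0.42 without vehicle replicate 3 of that genotype. For the WT value the range over 19 alternatives was 0.00666 to 0.112. The interaction also missed the threshold without FGFR3/4KO vehicle replicate 1 (0.106) or replicate 2 (0.0528), without FGFR3/4KO FGF18 replicate 2 (0.0724) and with DESeq2 (0.0843), within a range of 0.0247 to 0.138 over 18 alternatives. The difference with FGF18 missed it without WT FGF18 replicate 1 (0.14), without FGFR3/4KO FGF18 replicate 2 (0.09) or replicate 3 (0.0537), and with DESeq2 (0.105), within 0.0225 to 0.14.

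The other tested gene of this role, Uap1, encodes the pyrophosphorylase that makes UDP-N-acetylglucosamine. It ranged from 12.2 to 27.5 CPM over the 12 libraries, with log2 fold changes of 0.11 ± 0.35 in WT and 0.06 ± 0.34 in FGFR3/4KO (adjusted p = 0.845 and 0.988, edgeR). Pgm2, a phosphoglucomutase, had 2 to 14 reads per library and was not tested.

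Glycosaminoglycan chains start with xylose on the core protein, which xylosyltransferases such as Xylt2 (ENSRNOG00000003728.6) attach. Xylt2 stood at 46.4, 32.6 and 38 CPM in WT vehicle and at 73.8, 61.2 and 55.4 CPM in WT FGF18. In FGFR3/4KO its level was 41.4, 34 and 35.1 CPM with vehicle and 36.9, 33.7 and 42.4 CPM with FGF18. The WT FGF18 libraries lay above all 9 others. The rise in WT was 0.72 ± 0.21 (log2 fold change ± SE; edgeR adjusted p = 0.0141), the FGFR3/4KO value was 0.03 ± 0.24 (adjusted p = 0.995; -0.05 to 0.12 with 1 library left out), and the interaction of -0.69 ± 0.33 did not pass (adjusted p = 0.196). With FGF18 the level was lower in FGFR3/4KO than in WT (log2 difference -0.76 ± 0.21, adjusted p = 0.00575), a call that stood under all 19 alternatives. The rise in WT missed the threshold with DESeq2 (adjusted p = 0.0738) and without WT vehicle replicate 2 (0.077), WT vehicle replicate 3 (0.0619) or WT FGF18 replicate 1 (0.0799), the range over 19 alternatives being 0.0124 to 0.0799. Dse, the epimerase that turns chondroitin into dermatan sulphate, held 1 to 16 reads per library and gave 0.01 ± 0.40 in WT (adjusted p = 0.984). Chst12, a chondroitin sulphotransferase, was under the total of 60.

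Both tested genes of O-linked N-acetylgalactosamine and N-acetylglucosamine addition had positive fold changes in WT, and 1 of them passed. Over all genes in WT, 12.9% passed upward and 3822 of 7378 were above 0, so these counts do not set the role apart. Galnt10 (ENSRNOG00000002488.3), which starts mucin-type O-glycans, was at 14.5, 19 and 12 CPM in WT vehicle and at 38.5, 46.9 and 27.1 CPM in WT FGF18. The FGFR3/4KO values were 26, 31.2 and 20.8 CPM with vehicle and 27.7, 28.4 and 21.2 CPM with FGF18. Both FGFR3/4KO groups lay above WT vehicle and overlapped each other. FGF18 raised Galnt10 in WT by a log2 fold change of 1.34 ± 0.30 (edgeR adjusted p = 0.00138), a call kept under all 19 alternatives. In FGFR3/4KO the value was 0.04 ± 0.30 (adjusted p = 0.991; -0.11 to 0.20 with 1 library left out). The interaction, -1.30 ± 0.43, had an adjusted p of 0.052, and over 18 alternatives this ranged from 0.0259, without WT FGF18 replicate 3, to 0.158. It also passed with upper-quartile normalization (0.0487).

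Ogt, the transferase of O-linked N-acetylglucosamine on nuclear and cytosolic proteins, showed a similar order of levels without a call. Its level was 13, 12.2 and 19 CPM in WT vehicle and 32, 32.5 and 18.5 CPM in WT FGF18. In FGFR3/4KO it was 24.5, 19.8 and 26.3 CPM with vehicle and 9.23, 17.7 and 27.6 CPM with FGF18. The WT groups overlapped through WT FGF18 replicate 3. The log2 fold change was 0.89 ± 0.35 in WT (edgeR adjusted p = 0.058) and -0.36 ± 0.36 in FGFR3/4KO (adjusted p = 0.862), and the interaction was -1.25 ± 0.50 (adjusted p = 0.113). Ogt is shown in full although it passed in no comparison, and was chosen for this after its values were seen.

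Among the genes that assemble the N-glycan precursor on dolichol, 0 of 4 tested passed with FGF18 in WT or in FGFR3/4KO, with 1 and 0 at an unadjusted p under 0.05, and DESeq2 called 0 in both. All genes gave 12.9% up and 12.8% down in WT, so a count of 0 among 4 does not set this role apart. Alg3 (ENSRNOG00000001712.8) and Alg12 (ENSRNOG00000004591.6), mannosyltransferases that act in the lumen of the endoplasmic reticulum, were higher in FGFR3/4KO than in WT with FGF18. Alg3 stood at 62.3, 44.9 and 41 CPM in WT vehicle, 44.3, 27.7 and 30.8 CPM in WT FGF18, 58.2, 90.6 and 59.2 CPM in FGFR3/4KO vehicle and 62, 55.8 and 82 CPM in FGFR3/4KO FGF18. All FGFR3/4KO FGF18 libraries lay above all WT FGF18 libraries, and the WT groups overlapped. The log2 difference with FGF18 was 0.94 ± 0.24 (edgeR adjusted p = 0.0028), kept under all 19 alternatives, and that with vehicle was 0.44 ± 0.25 (adjusted p = 0.255).

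Alg12 was at 26.1, 27.2 and 22 CPM in WT vehicle, 9.84, 19.1 and 12.3 CPM in WT FGF18, 24.5, 11.3 and 27.4 CPM in FGFR3/4KO vehicle and 22.4, 30.1 and 24.9 CPM in FGFR3/4KO FGF18. WT FGF18 lay below WT vehicle and below FGFR3/4KO FGF18 without overlap. FGF18 in WT gave a log2 fold change of -0.85 ± 0.33 (edgeR adjusted p = 0.0582), and the genotypes with FGF18 differed by 0.92 ± 0.32 (adjusted p = 0.0262). The latter missed the threshold with DESeq2 (adjusted p = 0.105), without WT FGF18 replicate 1 (0.14) and without FGFR3/4KO FGF18 replicate 2 (0.109), within 0.0105 to 0.14 over 19 alternatives. Alg1 and Alg2 ranged from 9.19 to 26.8 CPM and from 23.7 to 42.5 CPM and passed in no comparison. Alg13 had 1 to 17 reads per library and was not tested.

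Of the 3 tested genes of N-glycan trimming and branching in the Golgi, Mgat4b rose and Mgat5 fell in WT RCS by edgeR, and DESeq2 called Mgat5 alone. Over all genes edgeR called 12.9% up and 12.8% down, and the role was not compared with them by a test. Mgat4b (ENSRNOG00000003235.6) and Mgat5 (ENSRNOG00000003614.5) add the N-acetylglucosamine residues that start further antennae. Mgat4b stood at 11.6, 15 and 7.99 CPM in WT vehicle and 23.8, 29.7 and 33.3 CPM in WT FGF18, from 8 to 11 and 27 to 31 reads. In FGFR3/4KO it was at 24.5, 11.3 and 15.3 CPM with vehicle and at 10.5, 22.2 and 4.61 CPM with FGF18. WT FGF18 lay above WT vehicle and above FGFR3/4KO FGF18, and the FGFR3/4KO groups overlapped. The log2 fold change was 1.34 ± 0.41 in WT (edgeR adjusted p = 0.0159) and -0.47 ± 0.44 in FGFR3/4KO (adjusted p = 0.856), with an interaction of -1.81 ± 0.61 (adjusted p = 0.0535). The FGFR3/4KO value for Mgat4b was -0.14 without vehicle replicate 1, -1.28 without FGF18 replicate 2 and -0.02 without FGF18 replicate 3 of that genotype. The interaction passed without the filter on low counts (0.0273), with at least 1 CPM in 3 libraries (0.0466) and without WT FGF18 replicate 1 (0.0448). Without FGFR3/4KO FGF18 replicate 2 it was -2.62 (adjusted p = 0.006), and the highest adjusted p over 18 alternatives was 0.214. The WT rise missed the threshold with DESeq2 (adjusted p = 0.0607) and without WT vehicle replicate 3 (0.111), and the range over 19 alternatives was 0.00451 to 0.111.

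With FGF18, Mgat4b was lower in FGFR3/4KO than in WT (log2 difference -1.16 ± 0.38, edgeR adjusted p = 0.0193). That difference was -0.70 (adjusted p = 0.164) without FGFR3/4KO FGF18 replicate 3 and -1.97 (0.00129) without replicate 2 of that group. It also missed the threshold without FGFR3/4KO FGF18 replicate 1 (0.0578), without WT FGF18 replicate 2 (0.0595) or replicate 3 (0.0558), and with DESeq2 (0.083).

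Mgat5 was at 11.6, 17.7 and 29 CPM in WT vehicle and at 1.64, 4.78 and 3.7 CPM in WT FGF18. In FGFR3/4KO it was at 3.06, 5.67 and 12.1 CPM with vehicle and at 3.95, 6.2 and 3.68 CPM with FGF18. WT vehicle lay above WT FGF18 in every library, while the FGFR3/4KO groups overlapped. The WT FGF18 libraries held 2, 5 and 3 reads, in sum 10 against 50 with vehicle. The ratio of these sums after scaling was 0.158, with an exact 95% interval of 0.0713 to 0.315 for counting error only. Mgat5 had 89 reads in all, of which the FGFR3/4KO groups held 15 with vehicle and 14 with FGF18. It thus reached the total of 60 through the WT vehicle libraries, so the choice of genes favours a fall from that group. The fitted log2 fold change in WT was -2.57 ± 0.53 (edgeR adjusted p = 0.000584), kept under all 19 alternatives, against -0.69 ± 0.62 in FGFR3/4KO (adjusted p = 0.853). The latter was 0.24 without FGFR3/4KO vehicle replicate 3 and -1.06 without vehicle replicate 1. The interaction, 1.88 ± 0.84, did not pass (adjusted p = 0.17), and the difference between genotypes with vehicle was -1.38 ± 0.50 (adjusted p = 0.0658). Mgat2, which opens the second arm for branching, ranged from 8.5 to 24.6 CPM and passed in no comparison, and Man1a1, a trimming mannosidase, was under the total of 60.

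Galactose and sialic acid complete the antennae. St6gal1 (ENSRNOG00000001823.8), which adds sialic acid in alpha2,6 linkage to galactose, was the gene of the 20 with the smallest adjusted p between genotypes. Its level was 65.2, 72.1 and 65 CPM in WT vehicle and 54.1, 44 and 45.6 CPM in WT FGF18. In FGFR3/4KO it was 106, 73.6 and 116 CPM with vehicle and 108, 136 and 124 CPM with FGF18. All FGFR3/4KO libraries lay above all WT libraries. The log2 difference was 0.60 ± 0.19 with vehicle (edgeR adjusted p = 0.03) and 1.35 ± 0.18 with FGF18 (adjusted p = 1.07e-06), the second being kept under all 19 alternatives. The vehicle difference missed the threshold with DESeq2 (adjusted p = 0.0938) and without WT vehicle replicate 1 (0.0867), 2 (0.057) or 3 (0.104) or FGFR3/4KO vehicle replicate 1 (0.103) or 3 (0.203), within 0.0109 to 0.203 over 19 alternatives. WT FGF18 lay below WT vehicle in every library, with a log2 fold change of -0.48 ± 0.19 (adjusted p = 0.0692), and the FGFR3/4KO value was 0.27 ± 0.17 (adjusted p = 0.809). The interaction was 0.75 ± 0.26 (adjusted p = 0.0598).

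B4galt3 (ENSRNOG00000003551.5), a beta1,4-galactosyltransferase, was at 110, 106 and 105 CPM in WT vehicle and 91.8, 101 and 97.3 CPM in WT FGF18. In FGFR3/4KO it was at 129, 133 and 103 CPM with vehicle and 190, 109 and 135 CPM with FGF18. FGFR3/4KO FGF18 replicate 1 was the highest library, and the FGFR3/4KO groups overlapped. All FGFR3/4KO FGF18 libraries lay above all WT FGF18 libraries. With FGF18 the genotypes differed by 0.56 ± 0.17 on the log2 scale (edgeR adjusted p = 0.014). Without that replicate the value was 0.37 (adjusted p = 0.0912), the highest adjusted p over 19 alternatives, of which the lowest was 0.00245. B4galt4 (14.3 to 46.1 CPM) and the sialyltransferase St3gal6 (21.3 to 50.3 CPM) passed in no comparison. B3galt4 was under the total of 60.

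**Figure D2:**
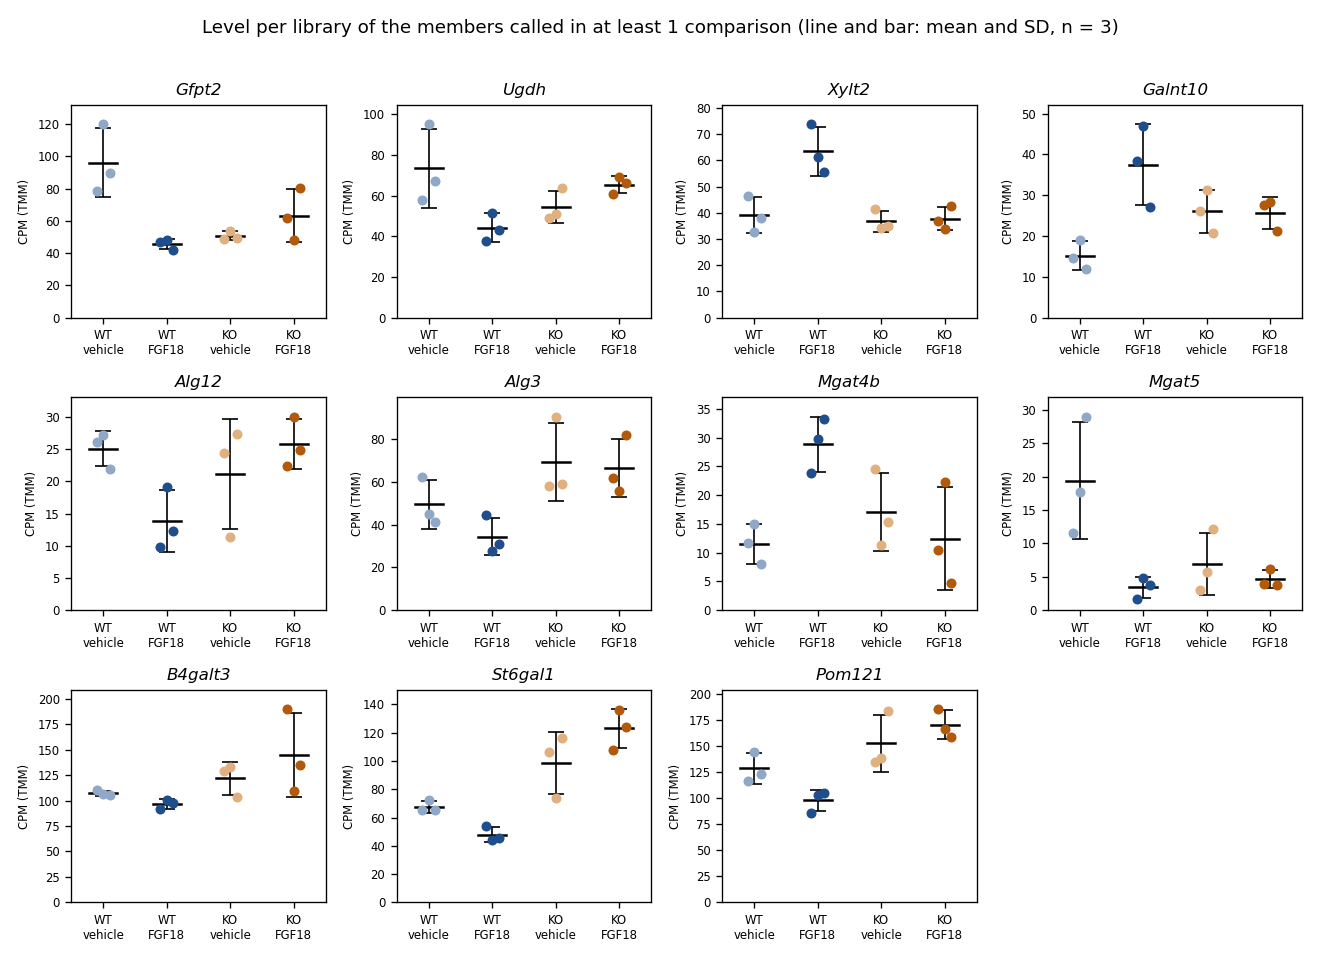
TMM-scaled CPM (vertical axis, from 0) in each of the 12 libraries for the 11 genes that passed in at least 1 comparison, with a dot per library and a line and bar for the mean and SD of each group (n = 3; KO is FGFR3/4KO). Gfpt2, Ugdh and Mgat5 are lower and Galnt10, Mgat4b and Xylt2 higher in WT FGF18 than in WT vehicle in every library, and St6gal1 is higher in FGFR3/4KO than in WT in every library.

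Of the genes for the glycolipid anchor, Pigv, a mannosyltransferase, was tested and passed in no comparison (6.58 to 37 CPM), while Piga and Pigl were under the total of 60. The nucleoporin Pom121 (ENSRNOG00000001449.2) stood at 117, 145 and 123 CPM in WT vehicle, 86.1, 103 and 105 CPM in WT FGF18, 135, 139 and 184 CPM in FGFR3/4KO vehicle and 186, 167 and 159 CPM in FGFR3/4KO FGF18. With FGF18 all FGFR3/4KO libraries lay above all WT libraries, by 0.80 ± 0.16 on the log2 scale (edgeR adjusted p = 0.00027). Over the 9 tested genes that passed in no comparison, log2 fold changes with FGF18 ran from -0.36 (St3gal6) to 0.89 (Ogt) in WT and from -0.36 (Ogt) to 0.71 (Mgat2) in FGFR3/4KO. In bulk RNA, fewer cells with a transcript and less of it per cell cannot be told apart.

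Other genes of glycan synthesis that the symbol rule does not reach were taken as a list of 24, of which 18 were tested. This list, and those of degradation genes and core proteins below, were chosen with earlier results of these data known. Their shares and medians are therefore descriptions and not tests. With FGF18 in WT, 2 of the 18 rose and 4 fell (edgeR, adjusted p under 0.05), where 12.9% and 12.8% of all genes did. DESeq2 gave 20 of the list an adjusted p and called 0 up and 3 down, against 662 up and 715 down among 8894 genes. The median log2 fold change was -0.29 against 0.02 for all genes. In FGFR3/4KO 0 passed, with 1 at an unadjusted p under 0.05 and 0 by DESeq2, and the median was -0.11. The interaction passed for Fam20b alone, 1 of 18 upward against 5.91% of all genes and 0 downward against 4.96%, and DESeq2 also called Fam20b alone. Fam20b, the kinase that phosphorylates the first xylose of glycosaminoglycan chains, was at 404, 386 and 486 CPM in WT vehicle and 260, 275 and 249 CPM in WT FGF18. Its FGFR3/4KO levels were 457, 479 and 536 CPM with vehicle and 560, 515 and 461 CPM with FGF18. WT FGF18 lay below the other 9 libraries. The log2 fold change was -0.71 ± 0.13 in WT (edgeR adjusted p = 2e-04) and 0.06 ± 0.13 in FGFR3/4KO (adjusted p = 0.958), and the interaction was 0.76 ± 0.18 (adjusted p = 0.00661). Both calls were kept under all alternatives.

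Among the tested genes of the list, the largest changes in WT were those of Gxylt1, Trip11, Cog1 and Nagpa. Gxylt1, a xylosyltransferase of O-glucose glycans, fell from 171 ± 19.2 to 99.8 ± 22.9 CPM (mean ± SD, n = 3), a log2 fold change of -0.79 ± 0.18 (edgeR adjusted p = 0.00193), kept under all 19 alternatives. Trip11, which encodes a Golgi tether, fell from 141 ± 37.4 to 83 ± 16.8 CPM with overlapping groups (-0.76 ± 0.22, adjusted p = 0.00996), and missed the threshold without WT vehicle replicate 2 (0.0505) or replicate 3 (0.0907), from a lowest value of 0.000259. Cog1, a subunit of another Golgi tether, rose from 26.1 ± 8.8 to 45.3 ± 3.78 CPM (0.75 ± 0.27, adjusted p = 0.0385). That call was missed in 8 of 19 alternatives, with DESeq2 (0.138), no filter (0.063), 1 CPM in 3 libraries (0.0583), and without WT vehicle replicate 1 (0.183) or 2 (0.0996), WT FGF18 replicate 2 (0.0994) or 3 (0.0825), or FGFR3/4KO vehicle replicate 3 (0.0501), and the lowest adjusted p was 0.0215. Nagpa, which uncovers the mannose 6-phosphate tag of lysosomal enzymes, rose from 46.6 ± 7.71 to 76.3 ± 8.61 CPM (0.72 ± 0.23, adjusted p = 0.0206). It missed the threshold with DESeq2 (0.0821) and without WT vehicle replicate 1 (0.0541) or 3 (0.131) or WT FGF18 replicate 2 (0.078) or 3 (0.053), and the lowest was 0.00937. Between genotypes with vehicle, 1 of the 18 was higher and 0 lower, against 8% and 6.07% of all genes, namely Pmm2, a phosphomannomutase, at 44 ± 6.93 CPM in WT and 72.7 ± 10.7 CPM in FGFR3/4KO (log2 difference 0.67 ± 0.21, adjusted p = 0.0305). It missed the threshold with DESeq2 (0.0981), no filter (0.0692), 1 CPM in 3 libraries (0.0584), and without WT vehicle replicate 1 (0.101) or 2 (0.109) or FGFR3/4KO vehicle replicate 1 (0.0634), 2 (0.0996) or 3 (0.0547), and the lowest was 0.0229.

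In FGFR3/4KO, 3 of the 4 genes named for WT had fold changes with FGF18 in the same direction as in WT, without a call. Nagpa averaged 31.4 ± 3.51 CPM in vehicle libraries and 48.7 ± 18.1 CPM in FGF18 libraries (log2 fold change 0.58 ± 0.27, edgeR adjusted p = 0.755), Cog1 at 22.7 ± 1.33 and 31.1 ± 9.13 CPM (0.47 ± 0.30, adjusted p = 0.809), both with overlapping groups. Gxylt1 was at 165 ± 7.18 and 132 ± 33.6 CPM (-0.31 ± 0.18, adjusted p = 0.798), with every FGF18 library below every vehicle library, and Trip11 at 101 ± 26.6 and 104 ± 30.3 CPM. The interaction passed for none of these 4 genes, so their effect was not shown to differ between genotypes.

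Genes of glycan degradation formed a list of 10, with 5 tested. Gusb, the lysosomal beta-glucuronidase, was the 1 that passed with FGF18 in WT (upward, against 12.9% of all genes; 0 passed downward against 12.8%), at 494, 479 and 426 CPM with vehicle and 449, 726 and 877 CPM with FGF18. The FGFR3/4KO libraries had 418, 394 and 335 CPM of Gusb with vehicle, then 568, 397 and 462 CPM with FGF18 (log2 fold change 0.32 ± 0.18, edgeR adjusted p = 0.786), with overlapping groups. The WT groups overlapped, because WT FGF18 replicate 1 lay within the vehicle range. The log2 fold change in WT was 0.55 ± 0.17 (edgeR adjusted p = 0.0197) and was 0.32 (adjusted p = 0.177) without WT FGF18 replicate 3. The threshold was also missed without WT FGF18 replicate 2 (0.0847) or WT vehicle replicate 2 (0.0538) or 3 (0.106), the lowest adjusted p over 19 alternatives being 2e-04. In the interaction 0 of the 5 passed, against 5.91% of all genes upward and 4.96% downward, DESeq2 called 0, and 0 had an unadjusted p under 0.05. The list's median log2 fold change was 0.07 in WT and 0.32 in FGFR3/4KO.

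Core proteins that carry such chains, with their small leucine-rich relatives, made a list of 10, with 6 tested. With FGF18 in WT, 1 of the 6 rose and 2 fell, against 12.9% and 12.8% of all genes. The interaction passed for the same 3 genes, 2 upward and 1 downward, against 5.91% and 4.96% of all genes. Prelp, a matrix protein of cartilage, stood at 2180, 2290 and 2040 CPM in WT vehicle, 1460, 1290 and 1310 CPM in WT FGF18, 2930, 3180 and 3020 CPM in FGFR3/4KO vehicle and 2970, 3300 and 3210 CPM in FGFR3/4KO FGF18. Fmod, fibromodulin, a keratan sulphate proteoglycan, stood at 433, 487 and 420 CPM, 290, 269 and 343 CPM, 933, 940 and 822 CPM, and 1190, 923 and 1010 CPM in the same order of groups. For both, WT FGF18 lay below WT vehicle, which lay below all FGFR3/4KO libraries. With FGF18 in WT, Prelp fell by 0.68 ± 0.11 (edgeR adjusted p = 3.74e-05) and Fmod by 0.57 ± 0.13 (adjusted p = 0.00206) on the log2 scale. The interaction was 0.74 ± 0.16 for Prelp (adjusted p = 0.00205) and 0.79 ± 0.19 for Fmod (adjusted p = 0.00505). With vehicle both were higher in FGFR3/4KO than in WT, Fmod by 1.01 ± 0.13 (adjusted p = 5.6e-06) and Prelp by 0.49 ± 0.11 (adjusted p = 0.00305). Podnl1, podocan-like 1, moved the other way, at 100, 129 and 117 CPM in WT vehicle, 248, 242 and 237 CPM in WT FGF18, 133, 178 and 121 CPM in FGFR3/4KO vehicle and 181, 125 and 147 CPM in FGFR3/4KO FGF18. WT FGF18 lay above the other 9 libraries, with a log2 fold change of 1.07 ± 0.16 (adjusted p = 1.49e-05) and an interaction of -0.97 ± 0.24 (adjusted p = 0.0071). All these calls were kept under all alternatives.

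Promoters were read from RefSeq on GRCr8, from 250 bases before to 50 after the annotated start, for 21 of the 22 genes. None was retrieved under the symbol Gfpt2. CACGTG, the E-box core bound by basic helix-loop-helix factors, was searched on both strands with the longer GTCACGTG, which contains it, and with TGACGTGG, the core of an element of the unfolded protein response. CACGTG was found in 1 of 21 genes (4.76%) and in 6.42% of 33469 promoters, GTCACGTG in 1 of 21 and 1.85%, and TGACGTGG in 0 of 21 and 0.595%. After these counts had been seen, GGGCGG (the GC box), CCGGAAGT (a site of ETS factors) and TGACTCA (a site of AP-1) were added. GGGCGG was found in 14 of 21 genes (66.7%) and in 33.1% of all promoters, CCGGAAGT in 0 of 21 and 3.81%, and TGACTCA in 0 of 21 and 4.63%. The members' promoters are richer in G and C, with a median of 61% against 51.7%, and neither the match counts nor the part of composition in them was tested. A match is a description of the letters only.

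Below are the promoters of Ugdh and Xylt2, a gene that fell and one that rose with FGF18 in WT, and of Alg1, the gene with the E-box core, which passed in no comparison. Capitals mark matches to GGGCGG on either strand and, in Alg1, to GTCACGTG, whose CACGTG starts 1 base before the annotated start. Ugdh lies at chr14:43202268-43202567 (+ strand), Xylt2 at chr10:80116209-80116508 (- strand) and Alg1 at chr10:10863190-10863489 (- strand), all on GRCr8 and written 5′ to 3′.
Ugdh: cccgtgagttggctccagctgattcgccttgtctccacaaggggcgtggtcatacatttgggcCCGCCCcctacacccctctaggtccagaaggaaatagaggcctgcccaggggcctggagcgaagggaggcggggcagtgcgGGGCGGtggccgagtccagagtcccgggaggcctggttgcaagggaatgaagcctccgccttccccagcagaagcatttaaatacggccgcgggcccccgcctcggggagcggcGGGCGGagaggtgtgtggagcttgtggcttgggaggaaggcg
Xylt2: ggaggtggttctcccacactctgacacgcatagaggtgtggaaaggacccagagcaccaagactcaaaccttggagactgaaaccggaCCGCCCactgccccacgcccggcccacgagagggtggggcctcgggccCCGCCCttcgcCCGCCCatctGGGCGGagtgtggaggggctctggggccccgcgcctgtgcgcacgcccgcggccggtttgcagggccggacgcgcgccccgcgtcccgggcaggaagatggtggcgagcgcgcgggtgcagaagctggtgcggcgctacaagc
Alg1: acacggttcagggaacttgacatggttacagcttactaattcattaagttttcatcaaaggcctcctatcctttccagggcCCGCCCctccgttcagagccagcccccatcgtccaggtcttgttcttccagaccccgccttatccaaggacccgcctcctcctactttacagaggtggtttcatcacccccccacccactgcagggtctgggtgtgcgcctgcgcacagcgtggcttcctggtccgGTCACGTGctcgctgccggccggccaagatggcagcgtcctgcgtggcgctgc
Ugdh holds 3 matches to GGGCGG, Xylt2 holds 4 and Alg1 holds 1, and matches were not tested against the direction of change.

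Low depth limits these results. Between 373964 and 1196647 reads per library fell on genes, and most of the genes had fewer than 100 reads in each library, and the size of change that could be detected was not measured. The variance between replicates was 2.99 to 5.67 times that of counting error in WT FGF18 and 2 to 4.65 times in FGFR3/4KO FGF18. In the vehicle groups it was 1.56 to 1.87 times. Median reads on genes were 1063903 in WT FGF18 and 1115851 in FGFR3/4KO FGF18, against 698040 and 674525 with vehicle. The part of depth in these ratios was not tested. The labels call the libraries biological replicates, and each p-value rests on 3 per group. A p that misses the threshold does not show that levels did not differ. The knockout is 1 clone, and the names of genes come from a table held in part, so enzymes outside its 1998 names were not analysed here, and no polymerase of chondroitin or heparan sulphate is among the 27 matched genes.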

How the data were processed

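Per the study's methods, reads were trimmed (Trim Galore) and aligned to the rn6 genome (STAR), and htseq-count gave a raw count per gene, which the authors deposited for each of the 12 libraries. Versions are not given in the sources used here. The methods name Gencode v19 as gene model, while the identifiers belong to rat Ensembl genes. Reads on genes made up 12.5 to 18.8% of each library, reads of low alignment quality made up 71.2 to 79.8%, reads outside genes 7.44 to 9.96% and ambiguous reads 0.0176 to 0.034%, and all but the first class were left out.

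Symbols came from the 1998 identifier and symbol pairs in the part held of a supplementary table. Counts were filtered with filterByExpr (minimum count 10, minimum total 15), scaled by TMM and fitted in edgeR 4.0.16 (R 4.3.3, limma 3.58.1) with a mean per group over 12 libraries. The quasi-likelihood test was adjusted by Benjamini-Hochberg over 7378 genes, with a threshold of 0.05. SE is the fold change divided by the root of F. The common biological coefficient of variation was 13.1%. Code was tested on simulated data. The variance between replicates was 1.56 to 1.87 times that of counting error (chi-square per degree of freedom) in the vehicle groups. It was 2.99 to 5.67 times in WT FGF18 and 2 to 4.65 times in FGFR3/4KO FGF18, and no replicates were merged. Floors and intervals of counts cover counting error only.

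Genes passing in at least 1 of 5 comparisons are given per library. From each list, at most 4 genes per comparison are named, largest change first, if they passed with FGF18 in WT, in the interaction or between genotypes with vehicle. The members and lists were chosen with earlier results of these data known. Alternatives were DESeq2 1.42.0, upper-quartile normalization, DESeq2 size factors, no filter, 1 CPM in 3 libraries, only the groups compared, a replicate block, raw library totals for levels, and each library left out in turn. GGGCGG, CCGGAAGT and TGACTCA were added to the promoter search after the results of the first 3 motifs had been seen. Promoter sequences are from RefSeq annotation of GRCr8. Fgfr3, Fgfr4, Col2a1 and Acan were not analysed here by name.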

Additional observations from a re-analysis of the deposited data

Results flagged for a closer look

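The FGF18 effect differed between FGFR3/4KO and WT RCS by the interaction test (edgeR, Benjamini-Hochberg over 7378 genes, 3 libraries per group) for 7 genes among those described. The log2 difference, FGFR3/4KO minus WT, was 1.40 for Gfpt2 (adjusted p = 0.0025) and 0.97 for Ugdh (adjusted p = 0.035). The call for Ugdh was lost in 6 of 18 alternatives, with DESeq2 (0.0843) and with 5 of the 12 libraries left out in turn (up to 0.138). It was 0.76 for Fam20b (adjusted p = 0.00661), 0.79 for Fmod (adjusted p = 0.00505) and 0.74 for Prelp (adjusted p = 0.00205). For these 5 genes the WT value was negative and the FGFR3/4KO value above 0 without a call. Podnl1 differed by -0.97 (adjusted p = 0.0071).

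Among the marker genes, Alb differed by -4.35 (adjusted p = 0.000887), the fold change being 1.79 in WT (adjusted p = 0.0235) and -2.56 in FGFR3/4KO (adjusted p = 0.622). It held 4, 7 and 2 reads in WT vehicle, 7, 27 and 23 in WT FGF18, 15, 7 and 21 in FGFR3/4KO vehicle and 0, 5 and 6 in FGFR3/4KO FGF18. DESeq2 gave no adjusted p for this difference. The source of these reads was not tested.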

How the results depend on the processing

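For 51 log2 fold changes, 864 alternative values kept direction and side of the threshold, 80 lost the call, 7 gained one and 6 changed sign. The sign changes were in FGFR3/4KO with FGF18, where no gene passed: over the libraries left out in turn, Xylt2 (0.03) ranged from -0.05 to 0.12, being -0.01 without vehicle replicate 3, Mgat5 (-0.69) from -1.06 to 0.24, and Galnt10 (0.04) from -0.11 to 0.20, being -0.04 without FGF18 replicate 2. The counts that follow are over the 22 genes, because some settings also test Pgm2 and Alg13. The count called up in WT went from 3 to 1 with DESeq2, and over the libraries left out in turn from 1 to 4 up and from 2 to 5 down (3). In the interaction, 2 up became 1 with DESeq2 (1 to 3 with a library left out), and 0 down became 1 with upper-quartile normalization, no filter or 1 CPM in 3 libraries (0 to 1). Between genotypes with vehicle, 1 up became 0 with DESeq2 (0 to 1), and 1 down became 2 in a fit of only the groups compared (1 to 2). With FGF18 the 2 down became 1 with DESeq2 (1 to 2), and the 6 up became 4 with DESeq2 and 7 with no filter (5 to 6). FGFR3/4KO gave 0 throughout. The cause was not tested. Over all genes, 448 lower in FGFR3/4KO with vehicle became 281 with DESeq2, 685 with only the groups compared and 258 to 530 with a library left out. For FGF18 in FGFR3/4KO, 0 up and 0 down became 9 and 11 without a filter, and 1 or 2 down with 1 CPM in 3 libraries, only the groups compared or WT FGF18 replicate 3 left out. The median gene moved by at most 0.04 (log2) under another scaling, and B4galt3 in WT vehicle was 112 CPM by raw totals. Replicate numbers did not pair the libraries: deviations of libraries with the same number had a mean r of -0.03 (18 pairs, lowest -0.21) and others 0.02 (36), and for 0 of 12 libraries was the best match its own number. With the replicate block, WT gave 876 up and 884 down over all genes, and 3 and 3 of the 20. The interaction gave 2 up and 1 down (Galnt10, adjusted p = 0.0402), vehicle 0 up (St6gal1, 0.0537) and Galnt10 in FGFR3/4KO -0.02.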
